A study of Rattus norvegicus with 16 samples.

Results

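The 10 genes described here are Cyp2e1 and 9 genes known for their place at the centre of the liver lobule: Glul, Axin2, Lgr5, Tbx3, Rnf43, Rhbg, Oat, Lect2 and Slc1a2. They were chosen by symbol from the 17168 genes of the deposited tables, all 10 were found, and 9 of them had enough reads to enter the test across 11162 genes; Lgr5 did not. Liver RNA came from Sprague Dawley rats, wild type or tspo -/-, on chow or on a diet that lacked methionine and choline (MCD), a common means of inducing steatohepatitis in rodents. Diets were given for 8 weeks from 12 weeks of age, and livers were taken at 20 weeks. Each of the 4 groups had 4 libraries: wild type on chow, knockout on chow, wild type on MCD and knockout on MCD. How the tspo allele was made, and whether each library stands for its own animal, is not said in the labels, and the p-values reflect only how these libraries vary. Libraries are named by their group and their number in the labels.

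Blood enters the lobule at the portal tracts and leaves by the central vein, and hepatocytes do different work along the way. Endothelial cells of the central vein secrete Wnt proteins and R-spondin, which keep beta-catenin active in the nearest hepatocytes. There beta-catenin, together with DNA-binding partners of the TCF/LEF family, maintains glutamine synthesis, ammonia uptake and part of drug metabolism, and it also drives genes such as Axin2 and Rnf43 that act back on the pathway. Cyp2e1 is a pericentral cytochrome P450 that oxidises ethanol, acetone and paracetamol, and its activity yields reactive oxygen. The level of its protein is also set by substrates that slow its breakdown, which RNA does not show.

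Libraries held 8745744 to 15762651 counts. A level in CPM is a count divided by its library's total, which was first scaled by the trimmed mean of M values (TMM). Tspo, the targeted gene, lay at 3.61 to 5.23 CPM in wild type on chow and 7.63 to 9.33 CPM in wild type on MCD. It lay at 0.656 to 1.66 CPM in 6 of the 8 libraries labelled knockout, but at 4.42 CPM in the library labelled knockout on chow 4 and at 4.17 CPM in the library labelled knockout on MCD 1. These 2 and wild type on chow 4 also stood apart on the second principal component of all tested genes (-33.0 to -63.7, against -9.12 or more in the other 13). The 8 hepatocyte markers, Alb first among them, were read in all 16 libraries. In whole liver, fewer cells of a type and less RNA per cell cannot be told apart.

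On the MCD diet Cyp2e1, Glul, Axin2, Rnf43, Rhbg and Slc1a2 were higher and Oat was lower, in both genotypes, while Tbx3 and Lect2 passed no test. In edgeR's quasi-likelihood test, with Benjamini-Hochberg adjustment over all tested genes and a threshold of 0.05, 7 of the 9 tested genes differed between diets in the wild type, where 34.1% of all tested genes did. Of these 6 were higher (18.2% of all tested genes) and 1 was lower (15.9%). In the knockout the same 7 genes differed in the same directions, where 40.4% of all tested genes did, 21.9% higher and 18.5% lower. Cyp2e1, Rhbg, Slc1a2 and Oat passed in both genotypes under all 28 alternative fits, while Glul, Axin2 and Rnf43 failed in some. At an unadjusted p under 0.05 the same 7 stood in each genotype (45.3% and 49.7% of all tested genes). In the wild type 5 of the 9 had all MCD libraries above all chow libraries (20.1% of all tested genes) and 1 had them below (18%), and in the knockout the numbers were 5 (17.6%) and 1 (14%). Over the 9 genes the median log2 fold change was 0.98 (wild type) and 1.11 (knockout), beside -0.0023 and 0.041 over all tested genes. With the 10th gene untested, these medians describe 9 of the 10. The genes were chosen with earlier results of these data known, so the shares and medians are no test of an excess over all genes.

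**Figure D1:**
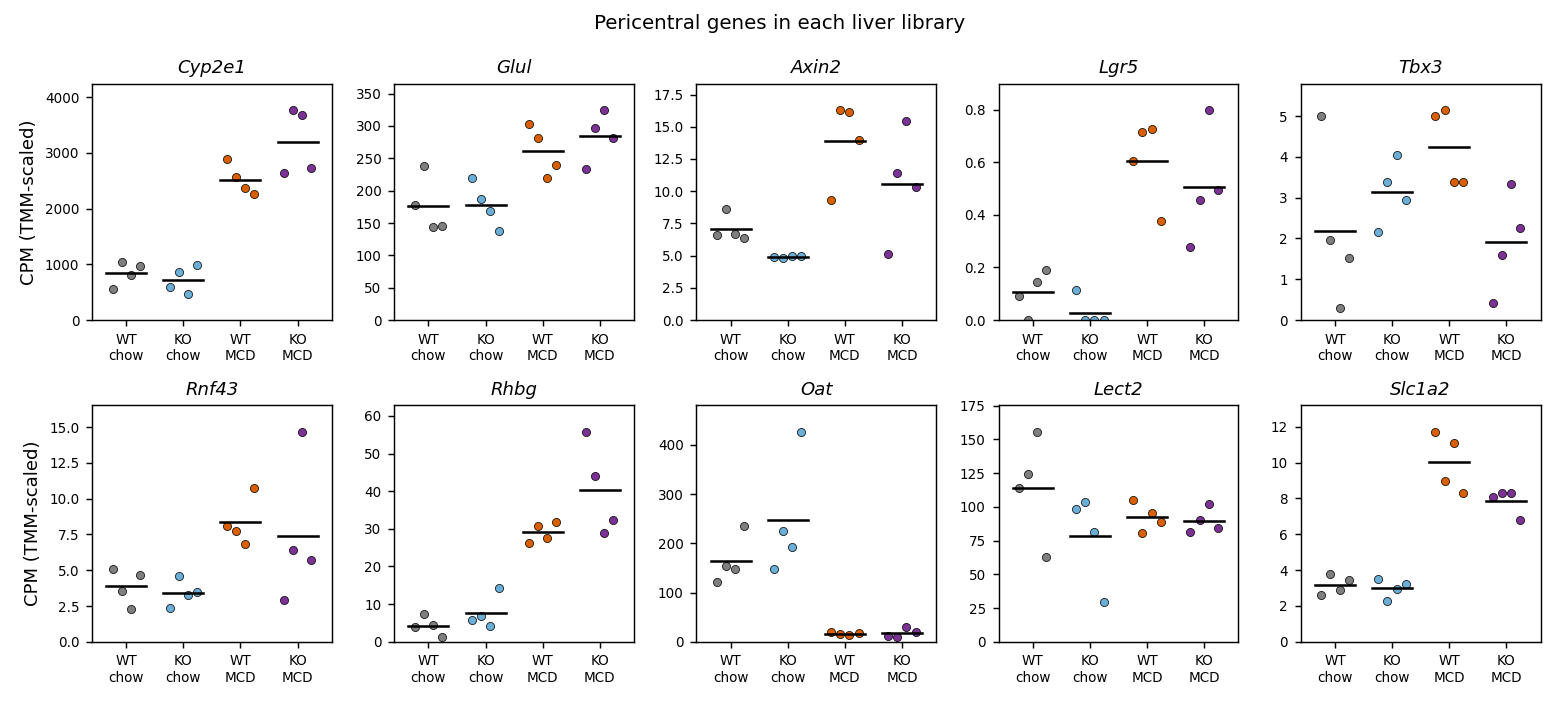
Level of each of the 10 genes (CPM, linear axis from 0) in each of the 16 libraries, drawn as 1 point per library in the order of their numbers 1 to 4, with the mean of each group as a line (WT wild type, KO knockout). Cyp2e1, Rhbg and Slc1a2 are higher in every MCD library than in every chow library, Oat is lower in every MCD library, and Lect2 overlaps throughout.

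RefSeq promoter windows of assembly GRCr8, each from 250 bases before to 50 bases after a gene's start, were found for 8 of the 10 genes, with 10 starts in all. No window was found for Lgr5 or Tbx3. The windows were searched on both strands for 4 TCF/LEF words: CTTTGAA, which 5.4% of all 33469 promoter windows hold, CTTTGAT, in 3.63% of windows, CTTTGTA, in 3.68% of windows, and CTTTGTT, in 5.98% of windows. At least 1 of them was in 17.1% of all windows, and no match overlapped another in those of the 10 genes. Of the 10 windows 5 held a word, 1 window each for Cyp2e1, Glul, Axin2, Lect2 and Slc1a2. Windows of 4 genes are shown: Cyp2e1 and Axin2, which rose with the diet, Lect2, which passed no test, and Oat, which fell. The windows of Cyp2e1 and Axin2 held 2 words each, more than those of any other gene that rose. The 4 shown therefore do not tell whether words go with a rise. Capitals mark the TCF/LEF words, which are matches of letters and not shown to be bound. The windows are Cyp2e1 (chr1:205269717-205270016, plus strand), Axin2 (chr10:94398535-94398834, plus strand), Lect2 (chr17:8049784-8050083, plus strand) and Oat (chr1:196797705-196798004, minus strand), each written 5′ to 3′ in the direction of the gene.
Cyp2e1: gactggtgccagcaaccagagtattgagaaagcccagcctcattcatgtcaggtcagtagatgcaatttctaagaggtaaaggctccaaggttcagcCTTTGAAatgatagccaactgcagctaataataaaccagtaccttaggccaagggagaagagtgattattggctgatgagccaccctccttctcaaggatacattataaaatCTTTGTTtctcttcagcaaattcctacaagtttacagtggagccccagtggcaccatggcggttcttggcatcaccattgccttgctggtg
Axin2: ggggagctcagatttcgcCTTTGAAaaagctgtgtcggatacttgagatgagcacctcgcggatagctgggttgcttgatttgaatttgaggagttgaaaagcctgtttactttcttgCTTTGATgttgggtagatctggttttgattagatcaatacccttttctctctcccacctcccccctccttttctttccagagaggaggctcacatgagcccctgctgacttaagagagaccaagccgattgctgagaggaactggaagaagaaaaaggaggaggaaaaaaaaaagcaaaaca
Lect2: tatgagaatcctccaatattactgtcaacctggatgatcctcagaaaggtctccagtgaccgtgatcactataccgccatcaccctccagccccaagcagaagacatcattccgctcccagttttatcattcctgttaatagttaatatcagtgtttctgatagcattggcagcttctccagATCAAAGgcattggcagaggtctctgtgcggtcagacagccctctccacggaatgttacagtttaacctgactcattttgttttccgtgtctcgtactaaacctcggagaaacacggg
Oat: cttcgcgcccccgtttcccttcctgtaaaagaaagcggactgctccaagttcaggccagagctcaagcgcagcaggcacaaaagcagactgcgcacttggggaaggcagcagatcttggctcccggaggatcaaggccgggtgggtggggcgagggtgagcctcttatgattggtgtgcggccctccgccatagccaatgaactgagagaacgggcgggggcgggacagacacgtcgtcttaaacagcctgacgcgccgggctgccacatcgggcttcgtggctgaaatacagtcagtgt
The Cyp2e1 window held CTTTGAA 153 bases before the start and CTTTGTT 41 bases before it. The Axin2 window held CTTTGAA at 232 and CTTTGAT at 132 bases before the start. In Lect2 the word CTTTGAT stood on the opposite strand, so that ATCAAAG is capitalised, 68 bases before the start. The Oat window held none. Rnf43 and Rhbg, both higher on MCD, also held none. Glul and Slc1a2 have 2 starts each, and in both a word was found at 1 of the 2.

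Cyp2e1 was higher on MCD in both genotypes, with no overlap between diets in either. In wild type on chow it was read at 563, 1041, 813 and 964 CPM, and in wild type on MCD at 2892, 2567, 2367 and 2257 CPM. Even the lowest MCD library was above the highest chow library. The mean was 845 ± 211 CPM (SD, n = 4) on chow and 2521 ± 279 CPM (SD, n = 4) on MCD, a 2.98-fold difference, with a log2 fold change of 1.58 ± 0.25 (SE) and an edgeR adjusted p of 0.000279.

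In knockout on chow Cyp2e1 was read at 590, 855, 459 and 980 CPM, and in knockout on MCD at 2639, 3770, 3676 and 2724 CPM. Again no library of the diets overlapped. The mean rose from 721 ± 239 CPM (SD, n = 4) to 3202 ± 603 CPM (SD, n = 4), 4.44-fold, with a log2 fold change of 2.15 ± 0.26 (SE) and an edgeR adjusted p of 2.2e-05. The difference of the diet effects, knockout minus wild type, was 0.57 with a 95% interval of -0.19 to 1.34, and it did not pass the test (edgeR adjusted p = 1). Both chow groups overlapped, and so did both MCD groups, so that the order of the 4 group means separates only the diets.

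Among genes that were not members, with a mean of at least 5 CPM, the 5 whose pattern lay closest to that of Cyp2e1 were Card10, Mcm2, Ces2c, Tmem56 and Lrrk1. Likeness was measured as the root mean square difference of centred log2 CPM over the 16 libraries, among 8228 genes, and ran from 0.368 for Card10 to 0.408 for Lrrk1. All 16 libraries enter, so the measure mainly follows the step between diets. Mcm2 encodes a subunit of the helicase that opens DNA for replication and Ces2c a carboxylesterase.

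Of 10 genes known to work with or act on Cyp2e1, 2 were higher and 4 lower on MCD in each genotype. Of all tested genes 18.2% were higher and 15.9% lower in the wild type, and 21.9% and 18.5% in the knockout. Ppara, the nuclear receptor that switches on fatty acid oxidation, was higher, from 8.60 to 36.2 CPM in the wild type and from 6.53 to 36.8 CPM in the knockout (edgeR adjusted p = 4.47e-05 and 1.02e-05). Insr, the insulin receptor, was the other that rose (log2 fold changes 1.23 and 1.21). Cyb5a, cytochrome b5, which passes electrons to Cyp2e1, fell by 1.35 and 0.97 on the log2 scale, and Cyb5r3, its reductase, fell by 1.07 and 0.92. Igf1 fell by 2.82 and 2.46, and Ghr, the growth hormone receptor, fell by 0.74 in both. With an index of message length in the model, whose values are given further on, Insr and Ghr were called in neither genotype (adjusted p = 0.0593 and 0.0895 for Insr, 0.154 and 0.172 for Ghr), while the other 4 named here kept their calls. The remaining 4 of the 10 were not called in either genotype. The list thus held genes that moved with Cyp2e1 and genes that moved against it.

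Glul, glutamine synthetase, joins ammonia to glutamate in the last rows of hepatocytes before the central vein. It was read at 179, 239, 144 and 146 CPM in wild type on chow and at 303, 282, 219 and 240 CPM in wild type on MCD. The groups overlapped, because wild type on chow 2 was above wild type on MCD 3. This gave a log2 fold change of 0.56 ± 0.20 (SE), 1.48-fold, with an edgeR adjusted p of 0.0371. In the fits that left out 1 library the call was lost without wild type on chow 1, 3 or 4 or without wild type on MCD 1, 2 or 4, with adjusted p from 0.0534 to 0.104.

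In knockout on chow Glul was read at 220, 188, 169 and 137 CPM, and in knockout on MCD at 234, 296, 325 and 281 CPM. Here every MCD library was above every chow library, though by little in knockout on MCD 1. Its log2 fold change here was 0.67 ± 0.20 (SE), 1.59-fold, with an edgeR adjusted p of 0.0133. The 5 genes nearest to Glul in pattern were Nup93, Casp2, Idh3a, Rpl3 and Sdc3, with root mean square differences of 0.164 to 0.208. Rpl3 is a ribosomal protein and Idh3a a subunit of a citric acid cycle enzyme.

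Rhbg, an ammonium transporter of the hepatocyte membrane, had the largest rise of the 6 tested genes that rose; Oat changed more, in the other direction. Wild type on chow gave 3.99, 7.34, 4.48 and 1.14 CPM, and wild type on MCD gave 26.3, 30.8, 27.5 and 31.9 CPM. Knockout on chow gave 5.68, 6.89, 4.16 and 14.2 CPM, and knockout on MCD gave 55.8, 44.1, 28.8 and 32.4 CPM. In both genotypes each MCD library was above each chow library, and the highest chow value was that of the library labelled knockout on chow 4. Between diets the log2 fold change was 2.78 ± 0.42 (SE) in wild type and 2.40 ± 0.41 (SE) in knockout, 6.87-fold and 5.26-fold, with edgeR adjusted p of 0.000191 and 0.000394.

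Slc1a2 encodes a glutamate transporter best known from astrocytes, which in liver is found on pericentral hepatocytes. It was read at 2.60, 3.81, 2.89 and 3.42 CPM in wild type on chow and at 11.7, 9.00, 11.1 and 8.33 CPM in wild type on MCD. In knockout on chow it was read at 3.52, 2.30, 2.97 and 3.21 CPM, and in knockout on MCD at 8.06, 8.30, 8.29 and 6.79 CPM. No chow library reached an MCD library, and the 8 chow libraries lay within 2.30 to 3.81 CPM. The log2 fold change was 1.65 ± 0.19 (SE) in wild type and 1.39 ± 0.19 (SE) in knockout, with edgeR adjusted p of 1.8e-05 and 6.9e-05, and its standard errors were the smallest of the 9 tested genes.

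Oat moved the other way. It encodes ornithine aminotransferase, a mitochondrial enzyme that turns ornithine towards glutamate and that shares the last hepatocyte rows with Glul. It was read at 121, 153, 147 and 235 CPM in wild type on chow and at 19.4, 14.9, 14.0 and 18.8 CPM in wild type on MCD. In knockout on chow it was read at 148, 226, 192 and 427 CPM, and in knockout on MCD at 12.7, 10.7, 30.7 and 20.8 CPM.

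The highest MCD value of Oat, in knockout on MCD 3, was far under the lowest chow value, and the highest chow value was that of the library labelled knockout on chow 4. Oat fell by 3.29 ± 0.37 (SE) on the log2 scale in the wild type, 9.77-fold, with an edgeR adjusted p of 1.7e-05. In the knockout it fell by 3.73 ± 0.38 (SE), 13.3-fold, with an edgeR adjusted p of 6.5e-06. Glul and Oat thus differed in direction on the same diet in both genotypes, although both are textbook genes of the same hepatocytes. The rise of Glul was the less certain of the 2. Its call was lost in 8 of 28 alternative fits in the wild type and 2 of 28 in the knockout. The lowest log2 fold changes there were 0.23 and 0.35, while Oat kept its call in all 28.

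Axin2 is a scaffold of the complex that destroys beta-catenin, and it is itself switched on by beta-catenin, which makes it a common readout of the pathway. It was read at 6.58, 8.64, 6.64 and 6.37 CPM in wild type on chow and at 9.31, 16.3, 16.1 and 14.0 CPM in wild type on MCD. In knockout on chow it was read at 4.88, 4.81, 4.95 and 4.95 CPM, and in knockout on MCD at 5.14, 11.4, 15.4 and 10.3 CPM. In both genotypes all MCD libraries were above all chow libraries, by a narrow step in the library labelled knockout on MCD 1. Log2 fold changes were 0.98 ± 0.26 (SE) in wild type and 1.11 ± 0.27 (SE) in knockout, with edgeR adjusted p of 0.00941 and 0.00443.

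Rnf43 encodes a membrane ubiquitin ligase that removes Frizzled receptors and so damps Wnt signals. Wild type on chow gave 5.10, 3.53, 2.31 and 4.66 CPM, and wild type on MCD gave 8.10, 7.76, 6.85 and 10.7 CPM, with no overlap. Knockout on chow gave 2.38, 4.59, 3.27 and 3.48 CPM, and knockout on MCD gave 2.92, 6.41, 14.7 and 5.68 CPM. In the knockout the groups overlapped through the library labelled knockout on MCD 1, and knockout on MCD 3 was far above the others.

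The log2 fold change of Rnf43 was 1.08 ± 0.38 (SE) in wild type and 1.11 ± 0.39 (SE) in knockout, with edgeR adjusted p of 0.0384 and 0.0332. In the wild type the call was lost without wild type on chow 2 or 3 or without wild type on MCD 1, 2 or 4, with adjusted p from 0.0593 to 0.105. In the knockout it was lost without knockout on chow 1, 3 or 4 or without knockout on MCD 3, with adjusted p from 0.0596 to 0.189, and without knockout on MCD 3 the log2 fold change was 0.55. With the replicate number as a block the adjusted p was 0.0599 and 0.0615, so that 6 genes and not 7 were called in each genotype. In the knockout the call was also lost with limma on the deposited CPM (adjusted p = 0.0642 and 0.0657 at the 2 pseudocounts) and with only the libraries of the contrast (0.0908).

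Lgr5, a receptor for R-spondin that marks stem cells in several tissues and is pericentral in liver, was read in very few counts. Wild type on chow gave 1, 0, 1 and 2 counts and wild type on MCD gave 8, 11, 12 and 8. Knockout on chow gave 1, 0, 0 and 0 counts and knockout on MCD gave 4, 8, 11 and 9. In both genotypes each MCD library held more counts than any chow library. The pooled counts of 39 against 4 in the wild type gave a ratio, scaled to library totals, of 5.73 (95% interval 2.07 to 22.1), and 32 against 1 in the knockout gave 17.8 (95% interval 2.98 to 726). These intervals cover counting error only. With no filter on low counts, over 14310 genes, the edgeR adjusted p of Lgr5 was 0.0117 in wild type and 0.00302 in knockout.

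Tbx3, a T-box transcription factor that beta-catenin controls in liver, passed no test for the diet. Wild type on chow gave 5.00, 1.95, 0.289 and 1.52 CPM, and wild type on MCD gave 4.99, 5.15, 3.40 and 3.39 CPM. Knockout on chow gave 2.16, 3.39, 4.06 and 2.95 CPM, and knockout on MCD gave 0.417, 1.60, 3.34 and 2.26 CPM. Wild type on chow 1 was as high as the MCD libraries, and the other 3 chow libraries were under all of them. The log2 fold change was 0.90 (95% interval -0.29 to 2.08) in the wild type and -0.72 (95% interval -1.93 to 0.49) in the knockout. Without wild type on chow 1 the wild-type value was 1.66 and was called (edgeR adjusted p = 0.0338).

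Lect2, a protein that hepatocytes secrete into blood and a known beta-catenin target, also passed no test for the diet. Wild type on chow gave 114, 125, 156 and 62.5 CPM, and wild type on MCD gave 105, 80.8, 95.6 and 88.5 CPM. Knockout on chow gave 98.6, 104, 81.2 and 29.7 CPM, and knockout on MCD gave 81.3, 89.9, 102 and 84.5 CPM. In each genotype on chow, library 4 was well under the other 3, and these are 2 of the 3 libraries that stood apart.

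The log2 fold change of Lect2 was -0.30 (95% interval -0.97 to 0.36) in the wild type and 0.19 (95% interval -0.48 to 0.86) in the knockout. Without the 3 libraries that stood apart it was -0.50 in the wild type, which was called (edgeR adjusted p = 0.0064), and -0.035 in the knockout, which was not. Its promoter window held a TCF/LEF word, as those of Cyp2e1 and Axin2 did.

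**Figure D2:**
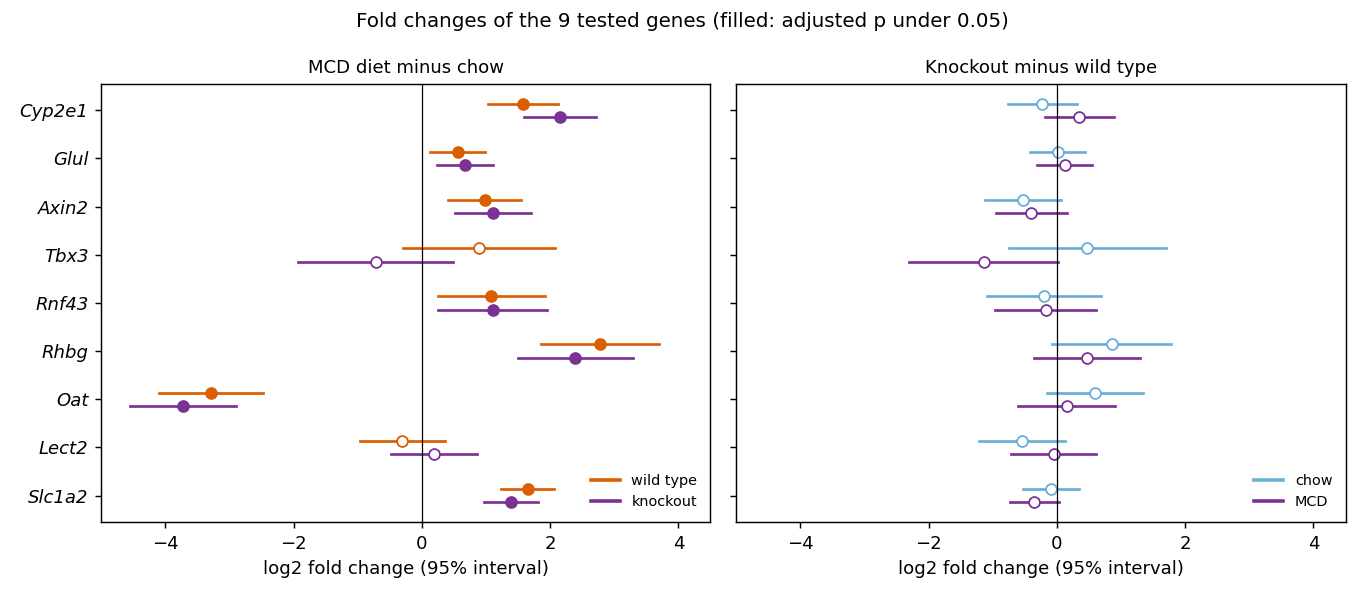
Log2 fold changes of the 9 tested genes with 95% intervals, for MCD minus chow in each genotype (left) and knockout minus wild type on each diet (right), where filled points have an adjusted p under 0.05. At left 7 genes per genotype are filled, all but Oat to the right of 0, and at right none is filled.

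Between genotypes none of the 9 tested genes was called by edgeR, on chow (0.00896% of all tested genes called), on MCD (0%) or in the difference of the diet effects (0%), and DESeq2 called none either. Tspo, the targeted gene, was not called by edgeR in any of these either. Its log2 fold changes were -1.23 on chow and -2.07 on MCD (edgeR unadjusted p = 0.0229 and 0.000291). A count of 0 therefore does not show that a gene was unchanged. At an unadjusted p under 0.05 stood 0 of the 9 on chow (10.3% of all tested genes), 1 on MCD (0.726%) and 0 in the difference (2.96%). The 1 gene was Tbx3 on MCD, with a log2 fold change of -1.14 (95% interval -2.31 to 0.02, unadjusted p = 0.0478, edgeR adjusted p = 1). The interval spans 0 because it uses 12 residual degrees of freedom, while the p-value also draws on the spread of other genes. All 4 knockout libraries on MCD were under all 4 wild-type libraries for Tbx3 and for Slc1a2 (log2 fold change -0.35, 95% interval -0.73 to 0.03), as were 0.376% of all tested genes, and none of the 9 had them above (0.421%). On chow the same held for Axin2 alone (log2 fold change -0.53, 95% interval -1.13 to 0.07), as for 2.59% of all tested genes, and the reverse held for none (1.76%).

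The intervals set bounds on what the comparison of the labelled groups could miss. They include the 2 libraries labelled knockout whose Tspo level was high, so they do not bound the effect of losing Tspo. For Glul the knockout minus wild type value was 0.01 (95% interval -0.42 to 0.44) on chow and 0.12 (95% interval -0.30 to 0.55) on MCD. For Cyp2e1 it was -0.23 (95% interval -0.77 to 0.31) on chow and 0.35 (95% interval -0.19 to 0.88) on MCD. Those for Rhbg on chow, 0.85 (95% interval -0.08 to 1.78), and Tbx3 in the difference of diet effects, -1.62 (95% interval -3.31 to 0.07), were wide. Without the 2 libraries labelled knockout whose Tspo level was high, edgeR again called 0 of the 9 in all 3 comparisons. Without the 3 libraries that stood apart it also called 0 of the 9. In that fit, however, 203 of the 11162 tested genes were called higher and 311 lower in the knockout on chow. The near absence of genotype calls on chow thus depended on which libraries entered.

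The other genes of the Wnt pathway were called in both directions on MCD. Of all tested genes 18.2% were called higher and 15.9% lower in the wild type, and 21.9% and 18.5% in the knockout. The counts of this and the following lists stand beside these shares. No list was tested for an excess over them. Of 22 Wnt and R-spondin genes (with Wls and Porcn, which release Wnt proteins) 14 were too low to test, and of the other 8 only Wnt9b, which central-vein endothelium makes, was called. It was lower in both genotypes, from 4.68 to 2.25 CPM and from 4.37 to 2.12 CPM (edgeR adjusted p = 0.0495 and 0.046). This call lay at the threshold. In the wild type it was lost in 12 of the 16 fits without 1 library, with adjusted p up to 0.146, and was kept only without wild type on chow 4, knockout on chow 1 or 4 or wild type on MCD 2. In the knockout it was lost in 10 of 16, with adjusted p up to 0.173, and was kept only without wild type on chow 1, 3 or 4, knockout on chow 4 or wild type on MCD 2 or 4.

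Of 12 tested receptors 2 were higher and 1 was lower in each genotype. Lrp6, a co-receptor for Wnt, rose from 16.7 to 36.6 CPM and from 18.9 to 34.9 CPM (edgeR adjusted p = 0.0011 and 0.00464). Ror1, a receptor of Wnt signals that do not use beta-catenin, rose by log2 fold changes of 1.49 and 1.53. Fzd4, a Frizzled receptor, fell by 1.48 and 0.84 on the log2 scale, and in the knockout its call was lost without knockout on MCD 2 or 4 (adjusted p = 0.0511 and 0.058). With the message length index in the model only 1 receptor was called in the knockout.

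Of 8 tested inhibitors outside the cell or at the membrane 1 was higher and 1 was lower in each genotype. Notum, a secreted enzyme that strips the lipid from Wnt proteins and is itself a beta-catenin target, fell from 43.1 to 4.35 CPM in the wild type and from 52.6 to 5.32 CPM in the knockout. All MCD libraries were under all chow libraries, with log2 fold changes of -3.33 ± 0.45 (SE) and -3.31 ± 0.45 (SE) and edgeR adjusted p of 6.85e-05 and 6.01e-05. Dkk3, a secreted relative of Wnt antagonists, rose by log2 fold changes of 0.97 and 1.42. In the wild type its call was lost without wild type on chow 1, 2 or 4 or wild type on MCD 2 or 3, with adjusted p from 0.0524 to 0.118.

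Of 15 genes of the beta-catenin destruction complex and its adaptors 9 were higher and 1 lower in the wild type, and 6 were higher and 2 lower in the knockout. Csnk1e, a casein kinase, rose from 3.48 to 10.8 CPM and from 3.01 to 11.4 CPM (edgeR adjusted p = 7.95e-05 and 2.16e-05). Tnks, which marks Axin proteins for breakdown, rose by log2 fold changes of 1.64 and 1.59, and Amer1, an adaptor of the complex, by 1.78 and 2.25. Dvl1, which passes the signal from Frizzled receptors, fell by 0.82 and 0.86 on the log2 scale, and the second gene that fell in the knockout was Dvl2 (-0.45), named after its value was seen. The call of Dvl1 was lost without wild type on chow 1 or wild type on MCD 2 or 4 in the wild type (adjusted p up to 0.0634), and without knockout on chow 4 or knockout on MCD 2 or 4 in the knockout (up to 0.0641). Without knockout on chow 4 its log2 fold change in the knockout was -0.44. That of Dvl2 was lost without knockout on chow 1 or 4 or knockout on MCD 1 or 4 (up to 0.103). The count called was 3 to 6 and not 10 in the wild type without any 1 of wild type on chow 2, 3 or 4, knockout on chow 3 or wild type on MCD 2, 3 or 4, and 4 and not 8 in the knockout without knockout on MCD 4. It was 6 with the replicate block in the wild type, 5 with only the libraries of the contrast in the knockout, and 2 in each genotype with the message length index in the model.

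Of 7 tested nuclear genes Ctnnb1, beta-catenin, rose by log2 fold changes of 0.91 and 0.63 (edgeR adjusted p = 0.00707 and 0.038). Tcf7l2, its main DNA-binding partner in liver, fell by 0.96 and 0.91 on the log2 scale (edgeR adjusted p = 0.00225 and 0.00265). The call of Ctnnb1 in the knockout was lost in 7 of the 16 fits without 1 library (wild type on chow 1, knockout on chow 1, 2 or 4, knockout on MCD 2, 3 or 4), with adjusted p from 0.0568 to 0.0964, and with the replicate block (0.056) or the message length index in the model (0.202). Without knockout on MCD 1 the list had 4 called genes in the knockout and not 2.

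Of 9 tested further Wnt target genes 5 were higher and 1, Notum, was lower in each genotype. Ccnd1, cyclin D1, rose from 66.8 to 215 CPM and from 64.7 to 186 CPM. Myc rose by log2 fold changes of 1.89 and 2.67, Cd44, a matrix receptor, by 2.62 and 2.67, and Zbtb16 by 3.28 and 4.90. Ccnd1, Myc and Cd44 are also known to rise in growing or inflamed tissue, and Zbtb16 is best known as a gene that glucocorticoids switch on, so they are not markers of the pathway alone. The fifth was Sp5, a TCF/LEF target, in the wild type (log2 fold change 1.46) and Nkd1, a feedback inhibitor, in the knockout (1.09), both named after their values were seen. Neither difference between the genotypes passed the test of the difference of diet effects, where edgeR called 0 of the 9.

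**Figure D3:**
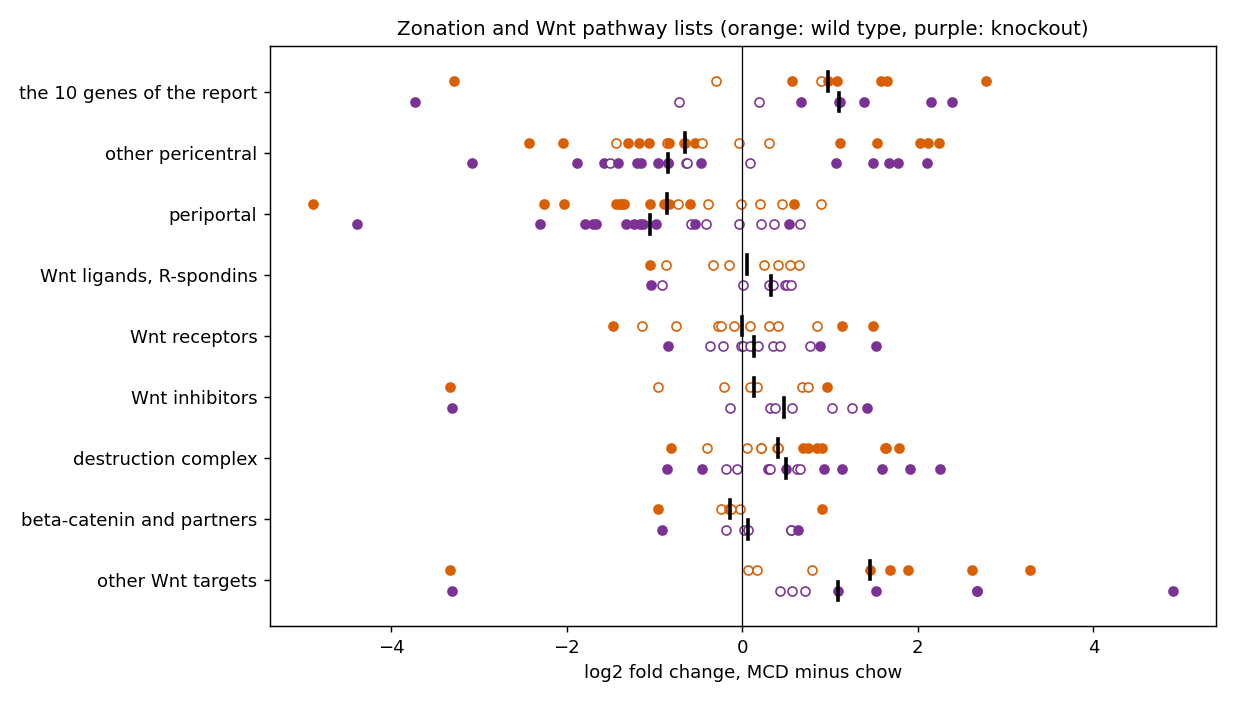
Log2 fold change for MCD minus chow of each tested gene in 9 lists, with 1 point per gene, filled where the adjusted p is under 0.05, and the list median as a vertical bar. The members are centred near 1 with Oat far to the left, the periportal genes lie mostly to the left of 0, and the other pericentral genes lie on both sides.

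Other pericentral hepatocyte genes, of which 19 were tested, went both ways, with more of them lower than higher. In the wild type 5 were higher and 8 lower (18.2% and 15.9% of all tested genes). In the knockout 5 were higher and 10 lower (21.9% and 18.5%). The medians were -0.65 and -0.84. Their summed level was 4501 to 6435 CPM in wild type on chow and 2821 to 3603 in wild type on MCD. In the knockout it was 5654 to 8929 CPM on chow and 2947 to 4155 on MCD. With the message length index in the model the counts were 4 higher and 4 lower, and 3 higher and 5 lower. Aldh1a1, a retinal dehydrogenase, rose from 57.9 to 235 CPM and from 81.4 to 259 CPM, and Ahr, the dioxin receptor, rose by log2 fold changes of 1.54 and 2.11. The other 3 that rose, named after their values were seen, were Cyp7a1, the rate-limiting enzyme of bile acid synthesis (2.25 and 1.49), Nr1i3, the receptor CAR (2.12 and 1.78), and Slc13a3, a dicarboxylate transporter (1.12 and 1.07).

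Pon1, a lactonase carried on lipoproteins, fell from 1574 to 383 CPM and from 1952 to 530 CPM (edgeR adjusted p = 0.000209 and 0.000321). Rgn, regucalcin, fell from 778 to 316 CPM and from 750 to 327 CPM. In the knockout the call of Nr1i3 was lost without knockout on chow 1, 2 or 3 or knockout on MCD 2, with adjusted p from 0.0524 to 0.0588. Both directions were present among genes of the same zone.

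Periportal genes, which belong to the opposite end of the lobule, were mostly lower: of 18 tested, 11 were lower and 1 higher in each genotype, with medians of -0.86 and -1.06. With the message length index in the model 5 were lower and 0 higher in each. Hal, which breaks down histidine, fell from 211 to 43.9 CPM and from 223 to 45.3 CPM (edgeR adjusted p = 1.34e-05 and 9.81e-06). Fbp1, an enzyme of glucose synthesis, fell by 1.43 and 1.32 on the log2 scale, and Cyp2f4, a cytochrome P450, by 1.37 and 1.23. Gls2, the liver glutaminase that releases ammonia from glutamine at the portal end, fell by 2.03 and 1.67, and Ftcd, of histidine and folate metabolism, by 1.35 and 1.79.

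The 1 periportal gene that rose was Cdh1, E-cadherin, by log2 fold changes of 0.59 and 0.54, named after its value was seen. Its call was lost without wild type on chow 1, 2 or 3 or wild type on MCD 3 or 4 in the wild type, and without wild type on chow 1, knockout on chow 1 or 3 or knockout on MCD 2, 3 or 4 in the knockout, with adjusted p up to 0.0894 and 0.13. Glul, which makes glutamine, was thus called higher and Gls2, which breaks it down, lower. With the message length index in the model neither was called in either genotype, and Gls2 had log2 fold changes of -1.24 and -0.74 (adjusted p = 0.0839 and 0.37). Markers of hepatocytes as a whole also fell in part: 4 of 8 were lower and 0 higher in each genotype, and Alb went from 125819 to 71502 CPM in the wild type.

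Markers of other cells and of message length moved with the diet too, and their part in the results above was not tested except where a fit is given. Of 10 tested endothelial markers 3 were higher and 1 lower in the wild type and 5 higher and 0 lower in the knockout, with summed levels of 168 to 218 CPM in wild type on chow, 161 to 238 in wild type on MCD, 132 to 187 in knockout on chow and 146 to 294 in knockout on MCD. Of 9 stellate and mesenchymal markers 3 and 4 were higher and 0 lower, with summed levels of 264 to 443, 400 to 1123, 231 to 339 and 427 to 608 CPM in the same order. Of 7 macrophage markers 2 were higher and 2 lower in the wild type and 2 higher and 3 lower in the knockout, with summed levels of 419 to 608, 366 to 664, 537 to 811 and 370 to 661 CPM. Of 5 tested bile duct markers 2 were higher and 1 lower in the wild type and 2 higher and 0 lower in the knockout, with summed levels of 19.7 to 169, 77.6 to 136, 22.2 to 145 and 103 to 122 CPM. No marker of hepatocytes, stellate cells or macrophages was at 0 in any library.

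Single libraries moved some of these counts. The macrophage count was 2 and not 4 in the wild type without wild type on chow 3 or wild type on MCD 2, and 3 and not 5 in the knockout without knockout on chow 4 or knockout on MCD 3 or 4. In the knockout the bile duct count was 4 and not 2 without wild type on chow 4, and the stellate count 7 and not 4 without wild type on MCD 2. With the index of message length in the model the counts were 2 (endothelial) and 1 (macrophage) in the wild type, and 0 (endothelial), 2 (stellate) and 3 (macrophage) in the knockout.

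An index of message length, the mean log2 level of 15 long messages minus that of 25 short ones, was 1.10 to 1.67 in 7 of the 8 MCD libraries and -0.21 to 0.21 in 6 of the 8 chow libraries. It was -0.56 in wild type on chow 4, -1.47 in the library labelled knockout on chow 4 and -0.70 in the library labelled knockout on MCD 1, the 3 libraries that stood apart. With this index in the model Cyp2e1, Rhbg, Slc1a2 and Oat kept their calls in both genotypes, with log2 fold changes of 1.63, 3.17, 1.75 and -2.94 in the wild type. Glul, Axin2 and Rnf43 lost theirs, with 0.23, 0.48 and 0.54 in the wild type (adjusted p = 0.415, 0.232 and 0.423) and 0.35, 0.54 and 0.51 in the knockout (adjusted p = 0.227, 0.222 and 0.495). Since the index itself followed the diet in most libraries, the 2 cannot be told apart for these 3 genes. Among the other genes named here, these lost their calls with the index in both genotypes: Ror1, Dvl1, Ctnnb1, Gls2, Cdh1, Slc13a3, Insr and Ghr. Dkk3 and Amer1 lost theirs in the wild type, and Lrp6, Tnks, Dvl2, Nkd1 and Cyp7a1 in the knockout.

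Without the 3 libraries that stood apart all 6 genes that rose and Oat were called in both genotypes, and Lect2 was called lower in the wild type. Without the 4 libraries numbered 4 only 4 of the 6 genes that rose were called in each genotype. Glul lost its call (adjusted p = 0.0678 in wild type and 0.0514 in knockout), and so did Rnf43 (0.104 and 0.0645). Lect2 was again called lower in the wild type (adjusted p = 0.0383).

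**Figure D4:**
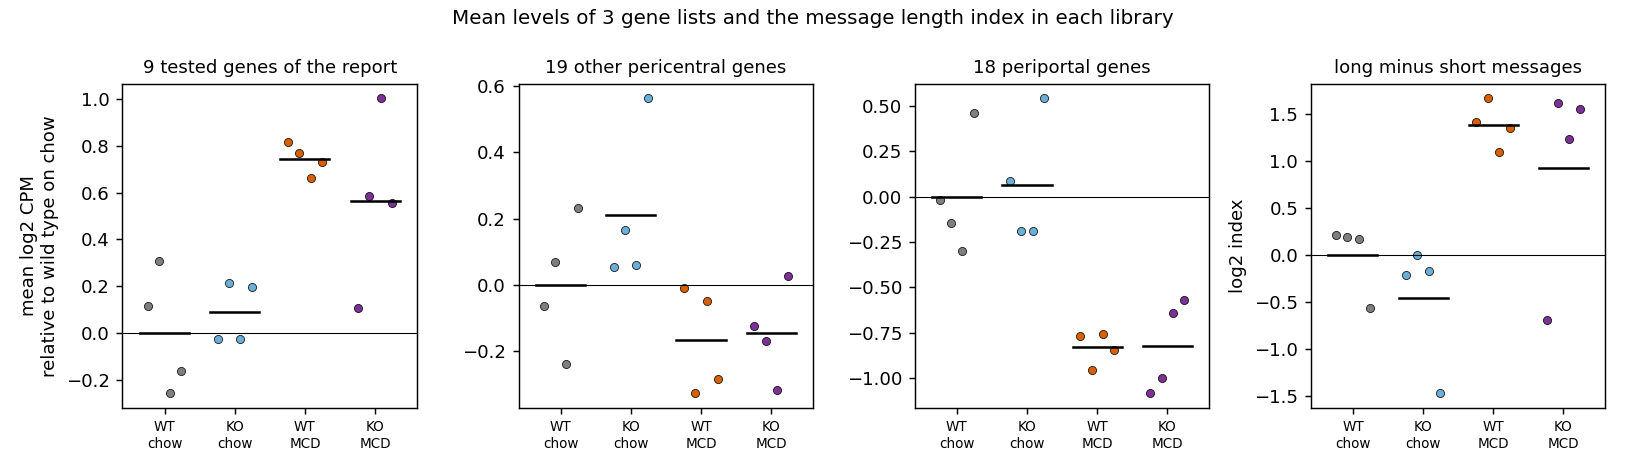
Mean log2 CPM, relative to wild type on chow, of the 9 tested genes, 19 other pericentral genes and 18 periportal genes, and the index of long minus short messages (log2), with 1 point per library and the group mean as a line. The mean of the 9 tested genes, Oat included, is 0.56 to 1.00 in 7 of the 8 MCD libraries and at most 0.31 on chow, but 0.11 in knockout on MCD 1, among the chow libraries. The periportal mean is -0.57 or lower in each MCD library and -0.30 or higher in each chow library, and the index is -0.56, -1.47 and -0.70 in wild type on chow 4, knockout on chow 4 and knockout on MCD 1.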

How the data were processed

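Liver poly(A) RNA was sequenced from 16 libraries with a stranded kit, per the labels' protocols. The series title speaks of mice, while every organism label is rat. The authors deposited RSEM expected counts per gene and a normalised signal, which is CPM with TMM scaling. The submitters' processing notes name Bowtie2 2.1.0, RSEM 1.2.15 and rn6, without roles. The deposited signal lay within 0.987 to 1.01 times the CPM computed here. All columns were mapped to samples by the labels (0 left out).

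Expected counts were rounded and tested in R 4.3.3 with edgeR 4.0.16: filterByExpr, TMM factors, 1 term per group, robust quasi-likelihood test with 12 residual degrees of freedom, threshold 0.05 after Benjamini-Hochberg adjustment over 11162 genes. The common biological coefficient of variation was 28.0%. All log2 fold changes are relative to the bulk of genes. The TMM factors themselves split by diet, at 0.644 to 1.00 in the chow libraries and 1.14 to 1.35 in the MCD libraries. Small fold changes between diets therefore rest on this scaling. The text names all 10 genes in every contrast, Tspo, up to 4 called genes per list with the smallest p in a contrast, and the 5 genes nearest to Cyp2e1 and to Glul. The members and lists were chosen with earlier results of these data known. Alternatives were DESeq2 1.42.0, limma 3.58.1 on the deposited signal with pseudocounts of 1 and 0.25, other scalings, no filter, a replicate block, only the libraries of the contrast, each library left out, and 4 added after the data were seen. The script was tested on simulated data. RefSeq windows of GRCr8, which is not the build of the files, served for sequences only. Without molecular identifiers, reads are not independent counts of molecules. Expected counts share reads among near copies, so the values of Cyp2a1, Cyp3a9 and Ces2c are uncertain.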

Additional observations from a re-analysis of the deposited data

Results flagged for a closer look

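Over 44 sets of 4 libraries (the 10 genes and Tspo in each group), 4 had 1 library far from the other 3 by Dixon's ratio of the gap to the range, where chance gives about 1 in 20 for normally distributed values. Axin2 was at 8.64 CPM in wild type on chow 2, against 6.37 to 6.64 CPM in the others. Slc1a2 was at 6.79 CPM in knockout on MCD 4, against 8.06 to 8.30 CPM. Lgr5 was at 0.114 CPM in knockout on chow 1, which is 1 count, against 0 counts in the other 3. With only 1 count in the set the ratio is always 1, so this flag was fixed in advance. Tspo was at 4.42 CPM in the library labelled knockout on chow 4, against 0.656 to 1.29 CPM in the others.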

How the results depend on the processing

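Of 45 results (9 genes in 5 comparisons) 14 were called, 8 of these kept their call under all 28 alternatives, 6 lost it in at least 1, and 0 changed sign. The count of called genes was 4 in each genotype with the message length index in the model, chosen after seeing the data, 6 in each with the replicate block, and 5 to 7 (wild type) and 6 to 7 (knockout) with 1 library left out. It was 6 and 5 without the 4 libraries numbered 4, 8 and 7 without the 3 that stood apart, and 6 in the knockout with limma or with only the libraries of the contrast, where Rnf43 was lost. The cause was not tested. Between genotypes and in the difference of diet effects the count of these 9 genes was 0 throughout. The other lists moved on chow without the 3 libraries that stood apart. There 1 Wnt or R-spondin gene and 1 other pericentral gene were called higher in the knockout. In the same fit 1 gene of beta-catenin and its nuclear partners and 1 other Wnt target were called lower. Of 24 same-numbered pairs of libraries 7 had a correlation of deviations over 0.1 (range -0.381 to 0.511). Whether the numbers pair the samples was not tested. Upper quartile scaling moved the median of all genes in the knockout diet comparison from 0.041 to 0.148.

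Among the 31 results not called, 12 changed sign in some setting. The ranges with 1 library left out come first below. For the diet, Lect2 in the knockout ran from -0.078 to 0.36, and was -0.035 without the 3 libraries that stood apart or the 2 of high Tspo, -0.051 without the 4 numbered 4 and -0.23 with the index. Tbx3 in the wild type was -0.096 with the index. For knockout minus wild type on chow, Glul ran from -0.10 to 0.19 and was -0.043 with upper quartile scaling, and Slc1a2 ran from -0.18 to 0.019. On MCD, Rnf43 ran from -0.74 to 0.084 and was 0.077, 0.081 and 0.077 without the 3, the 2 and the 4 libraries. Oat ran from -0.19 to 0.35, and Lect2 from -0.12 to 0.019, with 0.14 under the index. For the difference of diet effects, Glul ran from -0.068 to 0.23, Axin2 from -0.10 to 0.36, Rhbg from -0.81 to 0.075 (0.21 without the 3, 0.54 without the 4) and Rnf43 from -0.54 to 0.29. Rnf43 was also -0.0089 with RLE factors, -0.012 with DESeq2, -0.19 and -0.22 with limma, -0.0044 with the replicate block and -0.027 with the index, and Oat was 0.10 without the 2 of high Tspo.

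Of 75 called diet results of 39 other named genes, 47 kept their call throughout, and none of 78 changed sign. Without the 4 libraries numbered 4 the call was lost for Sp5 in the wild type and for Fzd4, Dvl1, Dvl2, Ctnnb1, Cdh1 and Cyp7a1 in the knockout. Depth limits Lgr5 and most Wnt genes, which held too few counts to test.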
